A study of Mus musculus with 16 samples.

Results

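The very long neuronal adhesion and signalling genes described here are 33 mouse genes chosen by symbol, most of which encode cell surface adhesion molecules, synaptic receptors, growth factors or their adaptors. Of the 33 names, 32 were found among the 22440 genes of the deposited expression tables, and Csmd2 was not analysed here. The genomic span of each gene was read from its deposited locus, in the mouse build mm9. By that measure 82 genes in all have a locus over 1000 kb, but these are 46 loci. A nested gene can carry the deposited locus of its host, as Flrt3 does inside Macrod2. Of the 32 genes described here, 21 span over 1000 kb and 31 span at least 300 kb. The exception is Nrg1, whose deposited locus covers 100 kb while the GENCODE annotation of the same build gives it 191 kb. Deposited loci were also shorter than the annotated genes for Dab1 (377 against 1125 kb), Ptprd (653 against 2271 kb) and Pcdh15 (828 against 1550 kb). For Rbfox1 the deposited locus was the longer (1528 against 603 kb).

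RNA was measured in 4 libraries from primary neurons of the Swiss-Webster mouse cortex, taken at embryonic day 16, dissociated and cultured. The etoposide pair is a control culture whose title names no treatment and a culture given 5 µM etoposide, a drug that traps type II topoisomerases on cut DNA, for a time that the labels do not give. The NMDA pair is a separately numbered control, again with no treatment in its title, and a culture given NMDA, which opens a class of glutamate receptor. The labels state 50 µM NMDA for 10 min and a recovery of 10 min for most experiments. Each group had 1 library, so no difference has a replicate check, no test was run and no p-value is given. Numbers of animals and cultures behind each library are not in the labels.

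Long genes are common among genes that neurons use to recognise and connect to each other, and most of their length is intron. An RNA polymerase must cross the whole locus to finish one transcript, and type II topoisomerases relieve the twist that builds up in the DNA around it. In cultured mouse neurons, topoisomerase inhibitors are known to lower the expression of many long genes. The human counterparts of Fhit, Park2, Macrod2, Lrp1b and Dmd lie in common fragile sites, stretches of DNA that break under replication stress.

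Promoter sequence was available for 22 of the 32 genes, as windows of 300 bases around annotated starts. These come from the RefSeq annotation of build GRCm38.p6, which differs from the build of the deposited loci. Only the most upstream start of each gene was used. The members had a median of 2 starts, against 1 over all genes. Entries were not used here for Cntnap5a, Ptprd, Cdh13, Csmd1, Csmd3, Lrp1b, Grid1, Nrg1, Auts2 and Park2. The 4 windows printed next belong to the members with the largest (Opcml, Nrg3) and the smallest (Macrod2, Cntnap2) differences with etoposide among those with an entry and at least 5 FPKM in the control, and they were picked after the values were seen. Opcml lies at chr9:27791049-27791348 on the plus strand, Nrg3 at chr14:39473039-39473338 on the minus strand, Cntnap2 at chr6:45059811-45060110 on the plus strand and Macrod2 at chr2:140395180-140395479 on the plus strand. Each runs 5′ to 3′ from 250 bases before the start to 50 after it, and capitals mark GC boxes (GGGCGG on either strand).
Opcml: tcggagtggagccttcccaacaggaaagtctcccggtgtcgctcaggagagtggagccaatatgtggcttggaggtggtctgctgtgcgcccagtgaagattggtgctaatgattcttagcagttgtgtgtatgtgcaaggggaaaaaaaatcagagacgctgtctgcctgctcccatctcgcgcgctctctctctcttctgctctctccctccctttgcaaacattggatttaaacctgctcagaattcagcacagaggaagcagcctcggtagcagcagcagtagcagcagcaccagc
Nrg3: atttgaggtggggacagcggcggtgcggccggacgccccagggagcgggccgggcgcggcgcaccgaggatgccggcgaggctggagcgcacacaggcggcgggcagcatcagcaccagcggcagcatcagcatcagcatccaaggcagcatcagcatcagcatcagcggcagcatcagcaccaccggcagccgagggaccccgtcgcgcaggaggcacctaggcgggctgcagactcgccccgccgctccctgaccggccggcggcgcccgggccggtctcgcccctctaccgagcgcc
Cntnap2: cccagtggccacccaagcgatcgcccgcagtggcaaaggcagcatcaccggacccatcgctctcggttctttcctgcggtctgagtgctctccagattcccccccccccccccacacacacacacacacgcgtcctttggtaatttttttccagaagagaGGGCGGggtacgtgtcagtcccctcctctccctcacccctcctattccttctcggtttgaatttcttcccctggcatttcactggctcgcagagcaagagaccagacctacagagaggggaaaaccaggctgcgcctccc
Macrod2: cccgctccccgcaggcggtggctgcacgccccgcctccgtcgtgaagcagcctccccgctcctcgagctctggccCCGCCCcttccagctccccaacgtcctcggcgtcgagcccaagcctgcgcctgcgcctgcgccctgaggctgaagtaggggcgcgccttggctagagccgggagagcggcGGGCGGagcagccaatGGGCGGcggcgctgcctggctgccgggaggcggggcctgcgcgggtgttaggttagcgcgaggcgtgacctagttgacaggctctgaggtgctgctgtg
These windows differ widely in base composition. The Macrod2 window held 3 GC boxes and 33 CpG, and that of Cntnap2 held 1 GC box and 14 CpG. Nrg3 had no GC box in its window but 36 CpG. Opcml had none either, and 9 CpG.

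Over the 22 member windows the median was 13 CpG and 58% G or C, against 7 CpG and 52.7% over 27025 genes. A GC box was present in 10 of the 22 (45.5%), against 35.9% of all windows. TATAAA was found in 2 of them, or 9.09% against 14.2%. For the activity-related motifs, 0 members held the CRE TGACGTCA, which 1.85% of all windows hold, 1 held an AP-1 site TGANTCA (4.55% against 7.92%) and 1 held the E box CACGTG (4.55% against 7.24%). Both strands were searched, and none of these motifs contains another. A match describes letters in the window and is not evidence of binding.

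**Figure D1:**
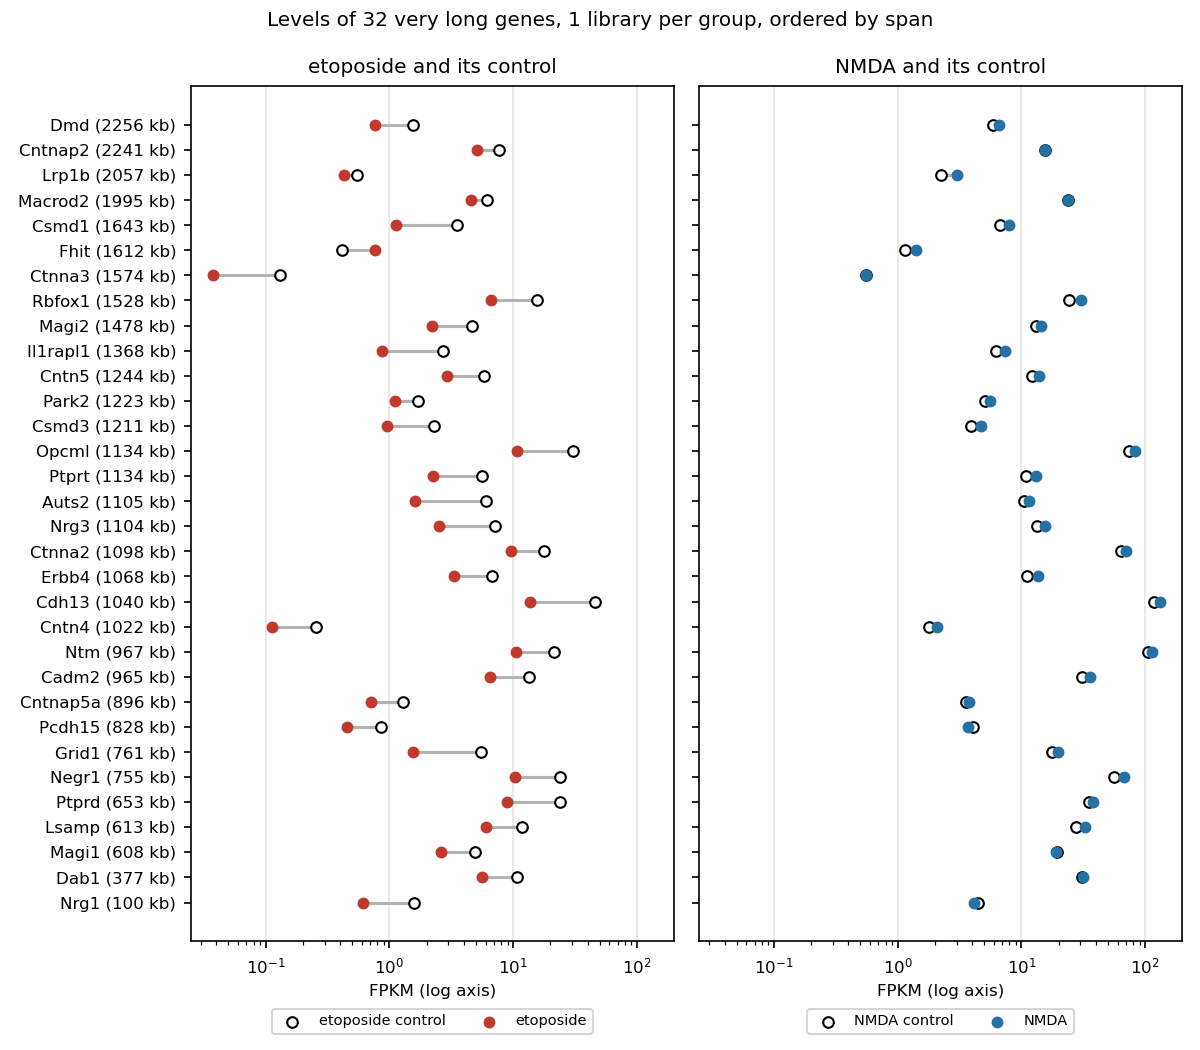
Expression level of the 32 genes in FPKM on a log axis, ordered from the longest deposited locus at the top to the shortest at the bottom, with 1 point per library. In the left panel open points are the etoposide control and filled points the etoposide library. In the right panel they are the NMDA control and the NMDA library. With etoposide the filled point lies left of the open one for every gene except Fhit, while with NMDA the points nearly coincide.

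The tables held 9836 to 12886 genes at FPKM of at least 1 per library, and low values gave an approximate depth of 15.7 to 23.9 M fragments. FPKM counts fragments per kilobase of transcript, scaled to the size of the library, so levels can be compared between genes. Folds below are log2((treated + 1)/(control + 1)), the size rule is 2-fold on that scale, and genes below 1 FPKM in both libraries of a pair were left out of counts. The median gene of the etoposide pair stood at -0.32 over 10681 compared genes, with a median ratio of 0.747, and that of the NMDA pair at 0.02 over 13028, with a median ratio of 1.02. Differences are therefore also given relative to the median gene. Over genes at FPKM of at least 1 in both libraries of a pair, which set the line that counting intervals are read against, the median ratio was 0.762 over 9614 genes with etoposide and 1.02 over 12633 with NMDA. Counting intervals are approximate 95% intervals from recovered fragment numbers and cover counting error only. They are narrower for genes with more fragments, and the shares of all genes given beside members are not matched for level or transcript length. In all, 22 of the 32 members reached 1 FPKM in every library, and 27 entered the etoposide comparison and 31 the NMDA comparison.

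With etoposide all 27 compared members were lower than in the control, where 76.7% of all genes were. The median member had a ratio of 0.475 and a log2 fold of -0.86, which is -0.54 relative to the median gene. By the 2-fold size rule 10 of 27 were lower and 0 higher, against 7.36% and 0.477% of all genes. The 10 were Cdh13, Opcml, Auts2, Grid1, Ptprd, Nrg3, Rbfox1, Negr1, Csmd1 and Ptprt, and Il1rapl1 and Ntm lay just short of the rule at -0.99 and -0.96. The plain ratio was 0.5 or less for 18 of 27, against 15.9% of all genes. The counting interval lay wholly below the median ratio of 0.762 for 25 of 27, against 32.4% of all genes, and Macrod2 and Park2 were the exceptions. The upper end for Cntnap5a, 0.761, lies above the 0.747 of all compared genes. With NMDA the members were close to their control, and 26 of 31 were slightly higher where 57.2% of all genes were.

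Contactins and Caspr proteins join axons and glia and organise membrane domains along the axon. Cntn5, a glycosylphosphatidylinositol-anchored contactin, stood at 5.81 FPKM in the control and 2.91 in the treated library of the etoposide pair, and at 12.2 and 13.8 in those of the NMDA pair. Cntnap2, the Caspr2 protein that clusters potassium channels, has the second longest deposited locus of the members at 2241 kb (chr6:45010060-47251370). It stood at 7.71, 5.08, 15.6 and 15.5 in the same order. Its etoposide ratio of 0.659 (interval 0.591 to 0.734) was among the nearest to 1 of all members, although its interval still lay below the median gene. Cntnap5a, a less studied relative, stood at 1.28, 0.709, 3.57 and 3.78. Cntn4, another anchored contactin, was at 0.256 and 0.113 FPKM in the etoposide pair and at 1.80 and 2.07 in the NMDA pair. None of the 3 compared genes of this group met the 2-fold rule, and their median relative to all genes was -0.20. Among shorter relatives, Cntn1 (291 kb) stood at 47.0 in the etoposide control and 17.8 with etoposide, a ratio of 0.377. Cntnap1, only 14.6 kb long, stood at 1.62 and 0.540, a ratio of 0.334. The other shorter Caspr genes were nearer to 1, Cntnap3 (166 kb) at 1.26 and 0.988, a ratio of 0.782, and Cntnap4 (313 kb) at 3.51 and 2.19, a ratio of 0.624.

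Receptor phosphatases of the Ptprd type and Il1rapl1 are synaptic organisers that bind each other across the cleft, while Ptprt is a phosphatase of a related adhesive class. Ptprd stood at 23.9 FPKM in the control and 8.98 in the treated library of the etoposide pair, and at 35.1 and 38.2 in those of the NMDA pair. Ptprt (chr2:161353359-162486883) stood at 5.62, 2.24, 10.9 and 13.1 in that order. Il1rapl1, an X-linked gene mutated in human intellectual disability, stood at 2.72, 0.877, 6.28 and 7.42. All 3 were lower with etoposide, with ratios of 0.376 (0.343 to 0.411), 0.398 (0.355 to 0.446) and 0.323 (0.262 to 0.396). Their median relative to all genes was -0.71, and the NMDA ratios were 1.09 to 1.19. The paralog Ptprs, 64.1 kb long, had an etoposide ratio of 0.526, from 51.3 to 27.0 FPKM, and Ptprk (523 kb) one of 0.341, from 13.4 to 4.57. Ratios of these relatives did not order by length, with Ptpru (69.8 kb) at 0.331, Ptprf (83.2 kb) at 0.436 and Ptprm (688 kb) at 0.505.

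IgLON proteins are small immunoglobulin adhesion molecules anchored in the neuronal membrane, and Cadm2 is a synaptic adhesion molecule of the SynCAM family. Opcml (chr9:27598854-28732633), an opioid-binding adhesion molecule by name, stood at 30.5 FPKM in the control and 10.7 in the treated library of the etoposide pair, and at 73.3 and 83.4 in those of the NMDA pair. Negr1, a regulator of neurite growth, stood at 23.8, 10.3, 56.4 and 67.2. Ntm, or neurotrimin, is a neighbour of Opcml on chromosome 9 and stood at 21.5, 10.6, 106 and 114. These are among the most abundant members, and each was lower with etoposide. Lsamp, the limbic system-associated protein, stood at 11.9, 6.08, 27.5 and 32.3. Cadm2 stood at 13.3, 6.52, 30.8 and 35.8. The 5 ratios ran from 0.351 for Opcml (0.327 to 0.376) to 0.513 for Lsamp (0.472 to 0.558), and 2 of 5 met the 2-fold rule. With NMDA all 5 were higher, with ratios from 1.08 for Ntm to 1.19 for Negr1. The paralog Cadm1 (323 kb) stood at 65.1 and 23.6 in the etoposide pair, and Cadm4, 22.5 kb long, at 38.3 and 21.6.

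Cadherins bind between cells and alpha-catenins link them to actin. Cdh13, a cadherin anchored by lipid without a cytoplasmic tail, was the most abundant member and the furthest from its control on the log2(FPKM + 1) scale (chr8:120807655-121847348). It stood at 45.6 FPKM in the control and 13.6 in the treated library of the etoposide pair, and at 117 and 132 in those of the NMDA pair. Ctnna2, the neuronal alpha-catenin, stood at 17.6, 9.60, 63.3 and 70.6. Their etoposide ratios were 0.298 (0.274 to 0.323) and 0.545 (0.492 to 0.603), so these highly expressed genes of nearly the same span differed by more than their counting intervals. Pcdh15, a protocadherin of the hair cell tip link, was at 0.852 and 0.450 in the etoposide pair and at 4.05 and 3.71 in the NMDA pair. Ctnna3 was near background throughout, from 0.0374 to 0.556 FPKM. Among shorter cadherins, Cdh2 (220 kb) stood at 28.3 in the etoposide control and 8.90 with etoposide, a ratio of 0.314, and Cdh10 (194 kb) at 4.56 and 0.988. Cdh6 (139 kb) went from 1.10 to 0.759, a ratio of 0.692, and Cdh9 (78.7 kb) from 1.56 to 1.08, a ratio of 0.693. Both lay above the median gene on the log2 scale with its pseudocount, but both ratios were below the median ratio of 0.747.

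CUB and sushi proteins are very large surface proteins whose domains resemble complement regulators, and Lrp1b is a giant receptor of the low-density lipoprotein receptor family. Csmd1 (chr8:15892545-17535385) stood at 3.55 FPKM in the control and 1.14 in the treated library of the etoposide pair, and at 6.67 and 7.91 in those of the NMDA pair. Csmd3 stood at 2.30, 0.957, 3.89 and 4.71. Lrp1b, 2057 kb long, was below 1 FPKM in the etoposide pair, at 0.544 and 0.431, and stood at 2.23 and 3.01 in the NMDA pair. The etoposide ratios of Csmd1 and Csmd3 were 0.321 (0.278 to 0.370) and 0.417 (0.351 to 0.493). That of Lrp1b was 0.791 (0.613 to 1.02), close to the ratio of the median gene. With NMDA this trio was at the upper end of the members, with ratios of 1.19 for Csmd1, 1.21 for Csmd3 and 1.35 for Lrp1b (1.23 to 1.47). The shorter relative Lrp1 (83.0 kb) had an NMDA ratio of 1.34, from 33.9 to 45.5 FPKM, and an etoposide ratio of 0.445.

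Grid1 encodes the delta-type glutamate receptor GluD1, which binds neurexin through cerebellins, and Magi1 and Magi2 are scaffolds that hold receptors at junctions and synapses. Grid1 (chr14:35633322-36394301) stood at 5.54 FPKM in the control and 1.56 in the treated library of the etoposide pair, and at 17.8 and 19.7 in those of the NMDA pair. Magi1 stood at 4.92, 2.62, 19.5 and 19.2. Magi2 stood at 4.61, 2.19, 13.2 and 14.4. The receptor gene was much lower with etoposide than either scaffold, with a ratio of 0.282 (0.233 to 0.339) against 0.533 (0.461 to 0.614) for Magi1 and 0.475 (0.392 to 0.573) for Magi2, and its interval did not overlap theirs. Magi3, the third scaffold of the family at 207 kb, had a ratio of 0.412, from 4.93 to 2.03. With NMDA, Magi1 was one of the few members not above its control (ratio 0.985, 0.937 to 1.04).

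Neuregulins are growth factors that signal through ErbB receptors, and Dab1 is the adaptor that carries the reelin signal into migrating neurons. Nrg3 (chr14:39182137-40286376) stood at 7.19 FPKM in the control and 2.54 in the treated library of the etoposide pair, and at 13.4 and 15.6 in those of the NMDA pair. Erbb4, the receptor for both neuregulins, stood at 6.78, 3.31, 11.1 and 13.5. Nrg1 was low in the etoposide pair, at 1.57 and 0.613, and stood at 4.45 and 4.14 in the NMDA pair. Ligands and receptor were all lower with etoposide, with ratios of 0.353 (0.292 to 0.425) for Nrg3, 0.488 (0.443 to 0.537) for Erbb4 and 0.389 (0.206 to 0.699) for Nrg1. Dab1 stood at 10.7, 5.63, 31.1 and 31.5 in the order of the libraries, an etoposide ratio of 0.527 (0.406 to 0.681). With NMDA, Erbb4 and Nrg3 had ratios of 1.21 and 1.17, while Nrg1 (0.931, 0.748 to 1.16) and Dab1 (1.01, 0.914 to 1.12) did not differ from the control beyond counting error.

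The remaining members act inside the cell. Auts2, a nuclear regulator linked to human neurodevelopmental disorders, stood at 5.98 FPKM in the control and 1.61 in the treated library of the etoposide pair, and at 10.4 and 11.6 in those of the NMDA pair. It had the smallest etoposide ratio of the compared members, 0.269 (0.211 to 0.339), and lies at chr5:131913552-133018213. Rbfox1, a neuronal splicing factor, stood at 15.7, 6.58, 24.2 and 30.5. With NMDA its log2 fold of 0.32, with the pseudocount of 1, was the largest among compared members, and its ratio of 1.26 (1.19 to 1.33) was below the 1.35 of Lrp1b. Its relative Rbfox3, the source of the NeuN antigen, had an etoposide ratio of 0.298, from 10.0 to 2.99 FPKM, and Rbfox2 one of 0.568, from 27.2 to 15.4.

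Dmd encodes dystrophin, which ties the cytoskeleton to the surface, and has the longest deposited locus of the members at 2256 kb (chrX:80194209-82450389). It stood at 1.56 FPKM in the control and 0.766 in the treated library of the etoposide pair, and at 5.92 and 6.57 in those of the NMDA pair. Macrod2, an enzyme that removes ADP-ribose from proteins, stood at 6.15, 4.56, 24.0 and 24.0 and spans 1995 kb (chr2:140221166-142215786). Its etoposide ratio of 0.741 (0.642 to 0.855) was the nearest to 1 among compared members, and its position relative to the median gene was -0.04. Park2, or parkin, a ubiquitin ligase of damaged mitochondria, stood at 1.71, 1.11, 5.08 and 5.59. Its ratio of 0.646 rests on few fragments and has an interval of 0.354 to 1.15, so no difference from either 1 or the median gene was detectable at this depth. Fhit, a nucleotide hydrolase, was below 1 FPKM in the etoposide pair, at 0.414 and 0.762. It is the only member that was higher with etoposide, at a ratio of 1.84 whose interval of 0.605 to 6.15 includes 1.

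**Figure D2:**
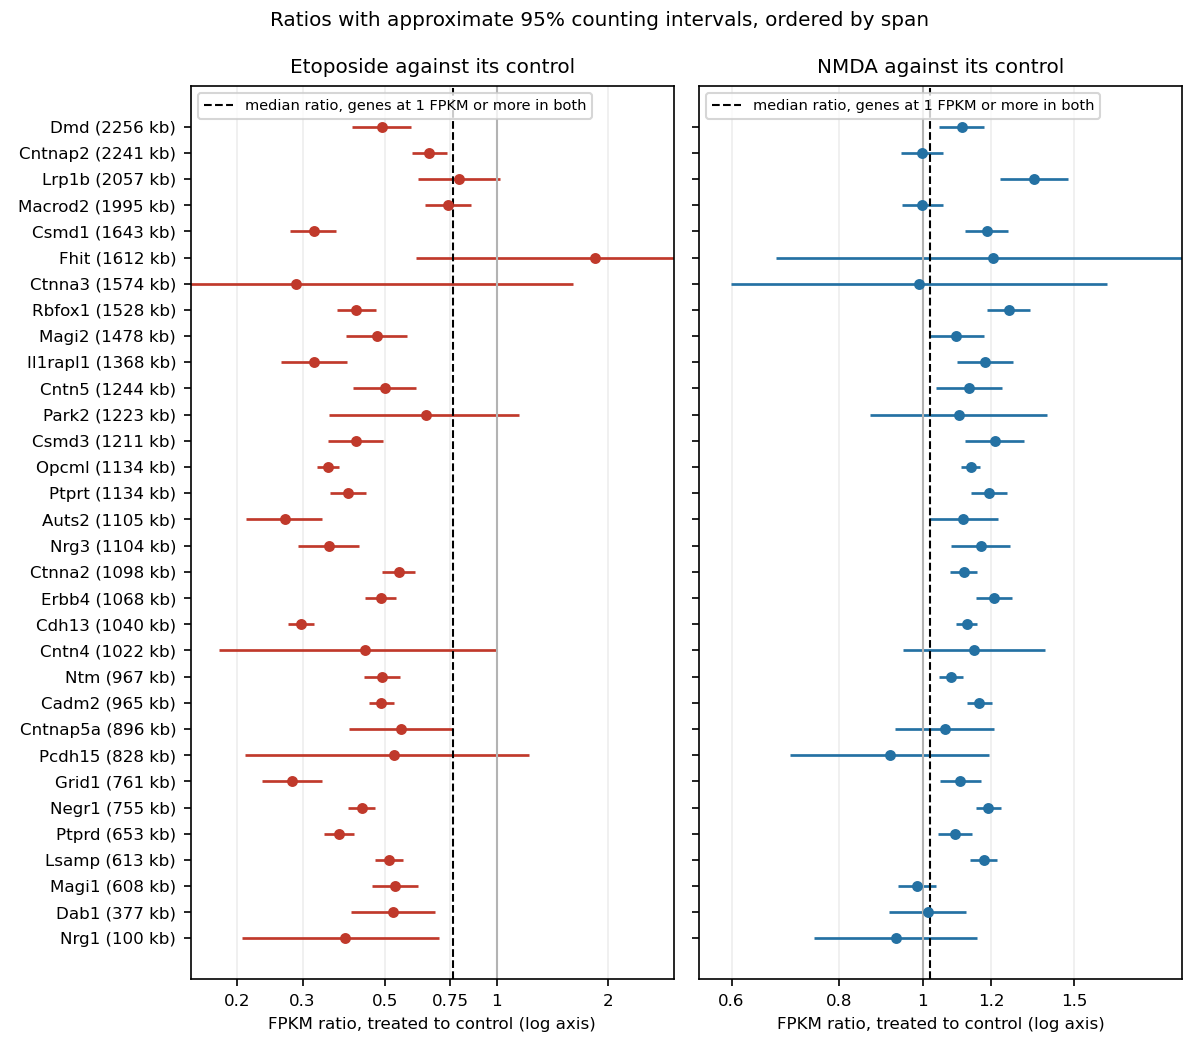
FPKM ratio of each of the 32 genes, treated to control, on a log axis with approximate 95% counting intervals as lines, for etoposide on the left and NMDA on the right. Genes run from the longest deposited locus at the top to that of Nrg1 at the bottom. The dashed line is the median ratio of genes at FPKM of at least 1 in both libraries (0.762 and 1.02). The solid line marks 1, and the intervals of Fhit and Ctnna3 run past the left panel. Auts2, Grid1 and Cdh13 lie farthest left among well measured members, and Macrod2 sits on the dashed line.

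The authors' deposited table for etoposide lists 9 of the 27 compared members as lower, where 6.28% of all genes compared are listed as lower. They are Auts2, Grid1, Cdh13, Csmd1, Il1rapl1, Opcml, Nrg3, Ptprt and Csmd3. In the authors' deposited table the fold by which they are lower runs from 2.40 for Csmd3 to 3.72 for Auts2. Ptprd, at 2.66-fold lower, is not in it. The authors' deposited table for NMDA lists 0 of the 31 members, where it lists 0.192% of all genes compared as higher and 0.292% as lower. No source used here gives the rule by which genes entered these tables.

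With NMDA, 25 of the 31 compared members lay above the median gene, where 50% of all genes do by definition. The median ratio was 1.12 and the median log2 fold 0.15, or 0.13 relative to all genes. The counting interval lay wholly above the median ratio for 19 of 31, against 16.1% of all genes, and wholly below it for 0, against 15.2%. By the 2-fold rule 0 members were higher and 0 lower, against 0.438% and 0.729% of all genes. Pcdh15 (0.916), Nrg1 (0.931), Magi1 (0.985), Cntnap2 (0.998) and Macrod2 (0.999) had ratios below 1, and every one of these intervals includes 1. These small differences depend on which untreated library serves as the control, as described below.

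Among members, the fold with etoposide did not follow span. Rank correlation (Spearman's rho) between span and log2 fold was 0.18 over the 27 members, and 0.05 with the plain ratio, while over 8880 genes with a locus of their own it was -0.47. Over the 270 genes of 300 kb or more it was -0.02. Genes in these rho values come from the same libraries and are not independent, so rho is a description only. The 3 compared members with the longest deposited loci, Dmd, Cntnap2 and Macrod2, had ratios of 0.491, 0.659 and 0.741. The other 14 compared members over 1000 kb had a median ratio of 0.408, from 0.269 to 0.646. The 10 under 1000 kb had one of 0.490, from 0.282 to 0.554. This split used deposited loci and was made after the values were seen. In the GENCODE annotation Ptprd spans 2271 kb, more than Dmd at 2257 kb, and its ratio was 0.376. Dab1 is over 1000 kb there and Rbfox1 under it. Log2 fold and level were related at -0.52, but the plain ratio and level were not (-0.03), and the pseudocount compresses the folds of low genes.

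Other long genes lay as low as the members. Of 242 genes of 300 to 1000 kb that are no members, 41.7% were at least 2-fold lower with etoposide, and their median relative to all genes was -0.59. For the 9 members of that length the values were 3 of 9 and -0.61. Over 1000 kb the 10 other genes had a median of -0.64, and 40% met the rule. The 17 members had a median of -0.53, and 7 met it. Of these 2 sets of members, 7 and 11 share their locus with no other gene, as the other genes of the bands do, and had medians of -0.54 and -0.53, with 2 and 4 that met the rule. Genes of 10 to 30 kb had a median of 0.10, those of 30 to 100 kb one of -0.12 and those of 100 to 300 kb one of -0.41. With NMDA the medians relative to all genes were higher in longer bands, from -0.03 under 10 kb to 0.08 for other genes of 300 to 1000 kb (members 0.09) and 0.11 over 1000 kb (members 0.14).

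**Figure D3:**
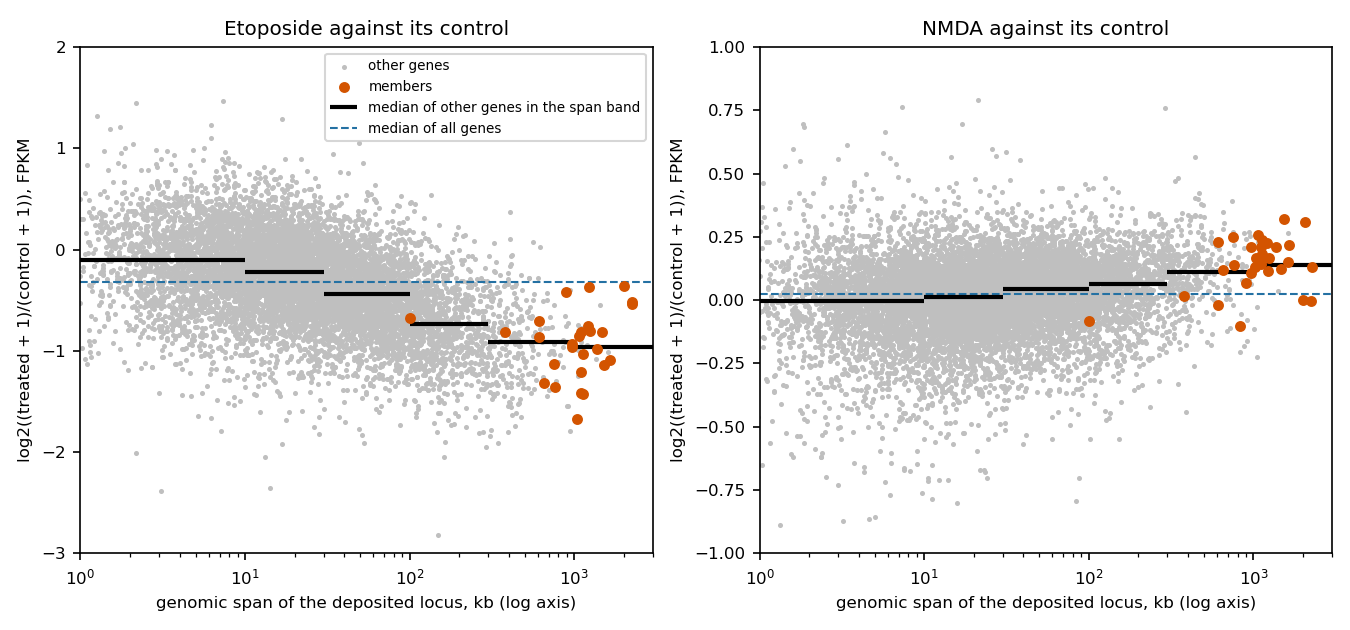
Log2((treated + 1)/(control + 1)) of FPKM against the genomic span of the deposited locus in kb on a log axis, for etoposide on the left and NMDA on the right. Grey points are other genes with a locus of their own, orange points are members, black bars are medians of the other genes in each span band, and the dashed line is the median of all genes. The black bars step down with span for etoposide and up for NMDA, on a vertical scale that differs between the panels, and the members scatter around the bars of their own length.

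Spearman's rho between the members' log2 folds with etoposide and with NMDA, which share no library but share each gene's length and level, was -0.51 over 27 members. The members with the lowest log2 folds with etoposide, Cdh13, Opcml, Auts2, Grid1 and Ptprd, had NMDA ratios of 1.12, 1.14, 1.12, 1.11 and 1.09, close to the member median of 1.12. With NMDA, rho of the log2 fold with transcript length was 0.48 over 31 members. With span it was 0.25 on the deposited loci and -0.12 with GENCODE spans, 0.0035 at FPKM of at least 5, and -0.16 against the other untreated library.

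Some members hold smaller genes within their introns, and these give a reading at the same place on the chromosome. Flrt3, a 20.6 kb adhesion gene on the opposite strand inside Macrod2 (chr2:140476650-140497205), stood at 10.3 FPKM in the etoposide control and 4.56 with etoposide. Its ratio of 0.442 was lower than the 0.741 of its host. Lrrtm1, a synaptic organiser inside Ctnna2, stood at 14.1 and 8.43, a ratio of 0.598 beside 0.545 for the host. Lrrtm3, inside the nearly silent Ctnna3, stood at 3.55 and 1.40, a ratio of 0.393. Each of these was lower with etoposide, as were 76.7% of all genes. Flrt3 and Lrrtm1 are far shorter than their hosts, and any part of place or length was not tested. Exons of Cadm2, Nrg1 and Ptprd overlap those of a gene on the opposite strand in the annotation, and reads there are uncertain if strands were not told apart.

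Relatives and partners of the members were mostly lower with etoposide as well. Of 27 compared paralogs, 27 were lower and 11 met the 2-fold rule, with a median of -0.65 relative to all genes. The 20 paralogs under 300 kb had a median of -0.61 and the 7 longer ones -1.0. Among 35 compared long genes that are no members, 19 met the rule, led by the teneurins Odz4 (7.59 to 1.47 FPKM) and Odz2 (18.7 to 4.67), the calcium channel subunit gene Cacna2d3 (8.43 to 2.15) and the neuroligin gene Nlgn1 (13.9 to 4.11), and the median was -0.74. In this list Lrrc4c has a deposited locus of only 164 kb. Contactin and Caspr partners had 5 of 9 past the rule and a median of -0.73, with Epb4.1l1 at 24.6 and 10.4, L1cam at 29.1 and 12.7 and Nrcam at 23.2 and 10.3. Partners of receptor phosphatases and GluD had 7 of 17 and -0.63, and the cerebellin gene Cbln4, only 7.13 kb long, was lowest at 4.98 and 0.730. Another cerebellin gene, Cbln2, was the 1 of the 17 that was higher with etoposide, at 1.93 and 2.21.

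Partners of the signalling and cytoskeletal members lay nearer the median gene. Of 11 compared cadherin and catenin partners 3 met the rule, with a median of -0.44. The reelin pathway had 1 of 9, the kinase gene Fyn (28.9 to 12.7 FPKM), with a median of -0.45. Neuregulin and ErbB partners had 0 of 9 and -0.26. The dystrophin complex had 1 of 10, Dag1, which encodes the dystroglycan that dystrophin binds (14.7 to 5.22), with a median of -0.04. Parkin partners had 0 of 10 and -0.04. These 2 lists differed by plain ratio, with medians of 0.635 for the dystrophin complex and 0.774 for parkin partners, against 0.747 for all genes. With NMDA the medians of the lists of other long genes, paralogs and partners were 0.01 to 0.11 relative to all genes.

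**Figure D4:**
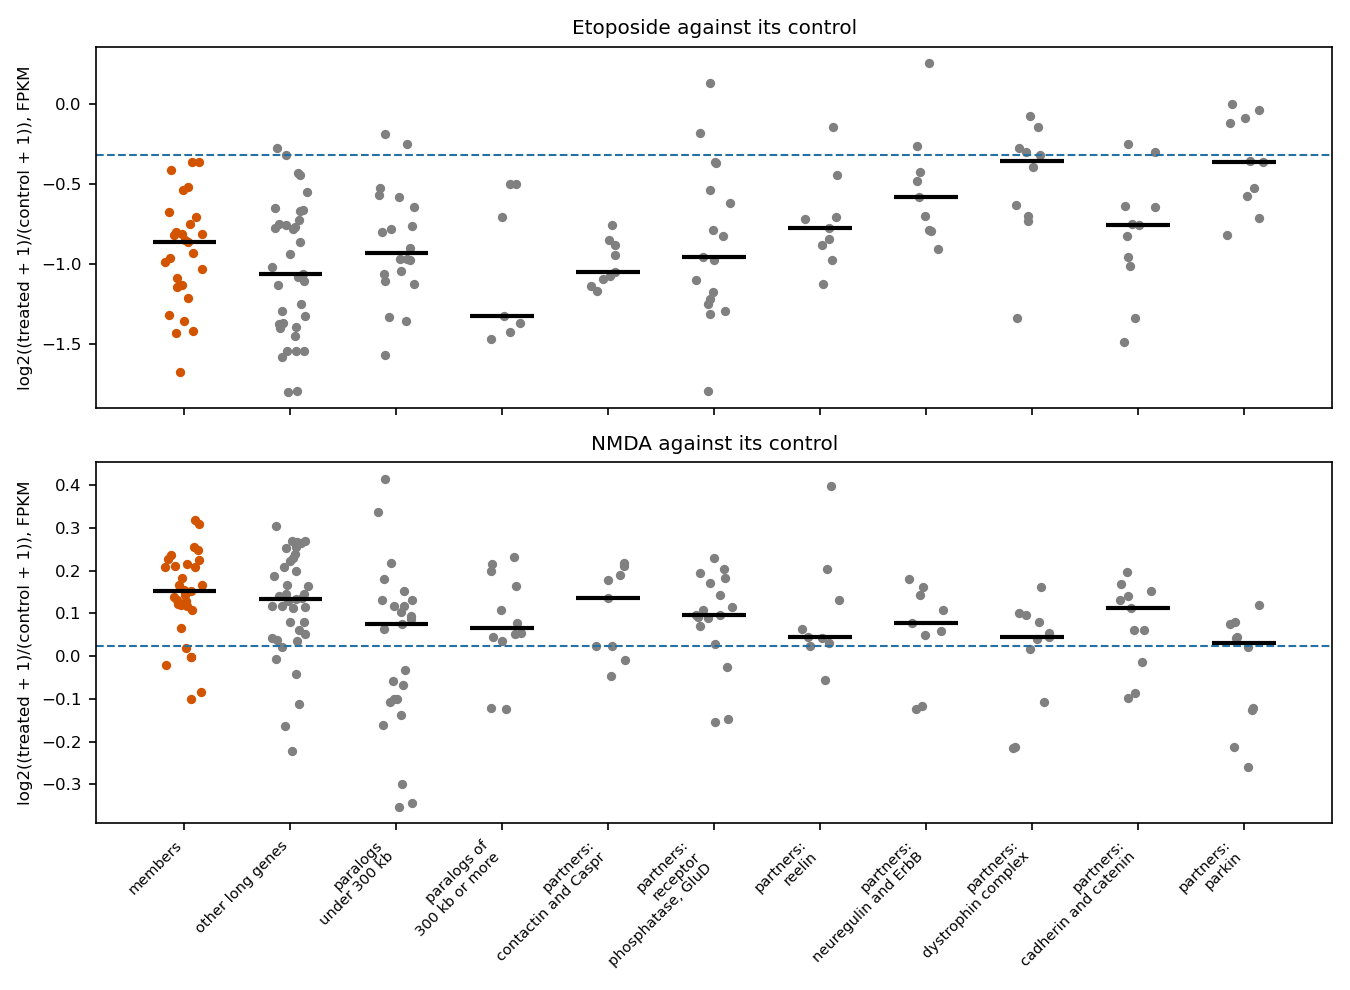
Log2((treated + 1)/(control + 1)) of FPKM for each compared gene of the members and of the lists of other long genes, paralogs and partners, with etoposide above and NMDA below. Points are genes, spread sideways for visibility, black bars are list medians and the dashed line is the median of all genes. With etoposide the bars of other long genes and of long paralogs lie below the bar of the members, as do some shorter lists, and those of the dystrophin and parkin partners lie at the dashed line.

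Markers of cell types moved with etoposide too, in a pair where the median ratio of all compared genes was 0.747. Summed over 7 measured neuron markers, FPKM went from 562 to 340, or 60.4% of the control. Excitatory markers were at 50.7%, inhibitory ones at 64.8%, astrocyte markers at 52.6% and oligodendrocyte lineage markers at 26.1%. Most of that last sum was Olig1, at 16.6 and 3.36 FPKM, and the others of the list stood at 50.5% without it. Progenitor markers went from 88.8 to 30.7 FPKM (34.6%), or 38.6% without Vim, which made up most of the sum. Vascular and smooth muscle markers went from 10.2 to 1.16 FPKM (11.4%). Most of their control sum was Acta2 (4.61 FPKM) and Tagln (4.82), with etoposide ratios of 0.0205 and 0.158. Pecam1, at 0.349 FPKM in the control, had a ratio of 0.658. Microglia markers were near 0 in both libraries (0.243 and 0.323). Of the 5 inhibitory markers only Dlx1 was higher with etoposide (ratio 1.15). Ratios of Stmn2 (0.918) and Gfap (0.901) lay nearer to 1 than the sums of their lists. The defining markers Cldn5 (both libraries), C1qa (control) and Sox10 (etoposide) were listed at 0. With NMDA the lists stood between 82.3% and 108% of their control. In bulk RNA, fewer cells of a type and less RNA per cell cannot be told apart, and the part of these shifts in the members' values was not tested.

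The untreated controls differed from each other in these genes. In the NMDA control every one of 31 compared members was higher than in the etoposide control as deposited, as were 98.4% of all genes, and the tables are on different FPKM scales, with a median ratio of 3.11 over all compared genes and 2.95 over genes at FPKM of at least 1 in both, the value used for scaling. By the 2-fold rule 19 of 31 were higher, against 75.1% of all genes. After this scaling, Cntn4 (2.39), Ntm (1.67), Pcdh15 (1.61), Lrp1b (1.39), Magi1 (1.34) and Macrod2 (1.32) were higher in the NMDA control, and Ptprd (0.499), Rbfox1 (0.523), Erbb4 (0.558), Csmd3 (0.575) and Auts2 (0.590) were lower. The interval lay wholly below the median ratio for 16 of 31 members and wholly above it for 8, against 29% and 37.4% of all genes. Relative to all genes, the median log2 difference between the controls was 1.40 for astrocyte markers, 1.13 for oligodendrocyte lineage markers and 0.90 for progenitor markers. It was 0.41 for vascular and smooth muscle markers and 0.39 for microglia markers, and 0.06 for neuron markers. Excitatory neuron markers (-0.44) and inhibitory ones (-0.33) were lower in the NMDA control relative to all genes.

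Set against the other untreated library after scaling, 23 of the 27 members compared with etoposide lay below 0. The exceptions were Cntnap2 (0.36), Erbb4 (0.22), Rbfox1 (0.11) and Ptprd (0.03). Over the 31 members that pass the level filter there, the median log2 fold was -0.45. Relative to all genes it was -0.35, in place of -0.54, so the median gene did not lie at 0 there. Of these 31, 7 lay above the median gene, where 50% of all genes do by definition. Shares of all genes below or above 0 in the scaled comparisons were not computed, so counts around 0 describe the members alone. Cdh13 (-1.31 and -1.10), Grid1 (-1.10 and -1.38), Opcml (-1.07 and -0.77), Il1rapl1 (-0.79 and -0.70) and Auts2 (-1.17 and -0.62) were below 0 against either control. With NMDA, 12 of 31 lay above 0 against the other control after scaling and the median relative to all genes was -0.15. By the median relative to all genes, the direction of the members with NMDA therefore held against 1 of the 2 untreated libraries.

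**Figure D5:**
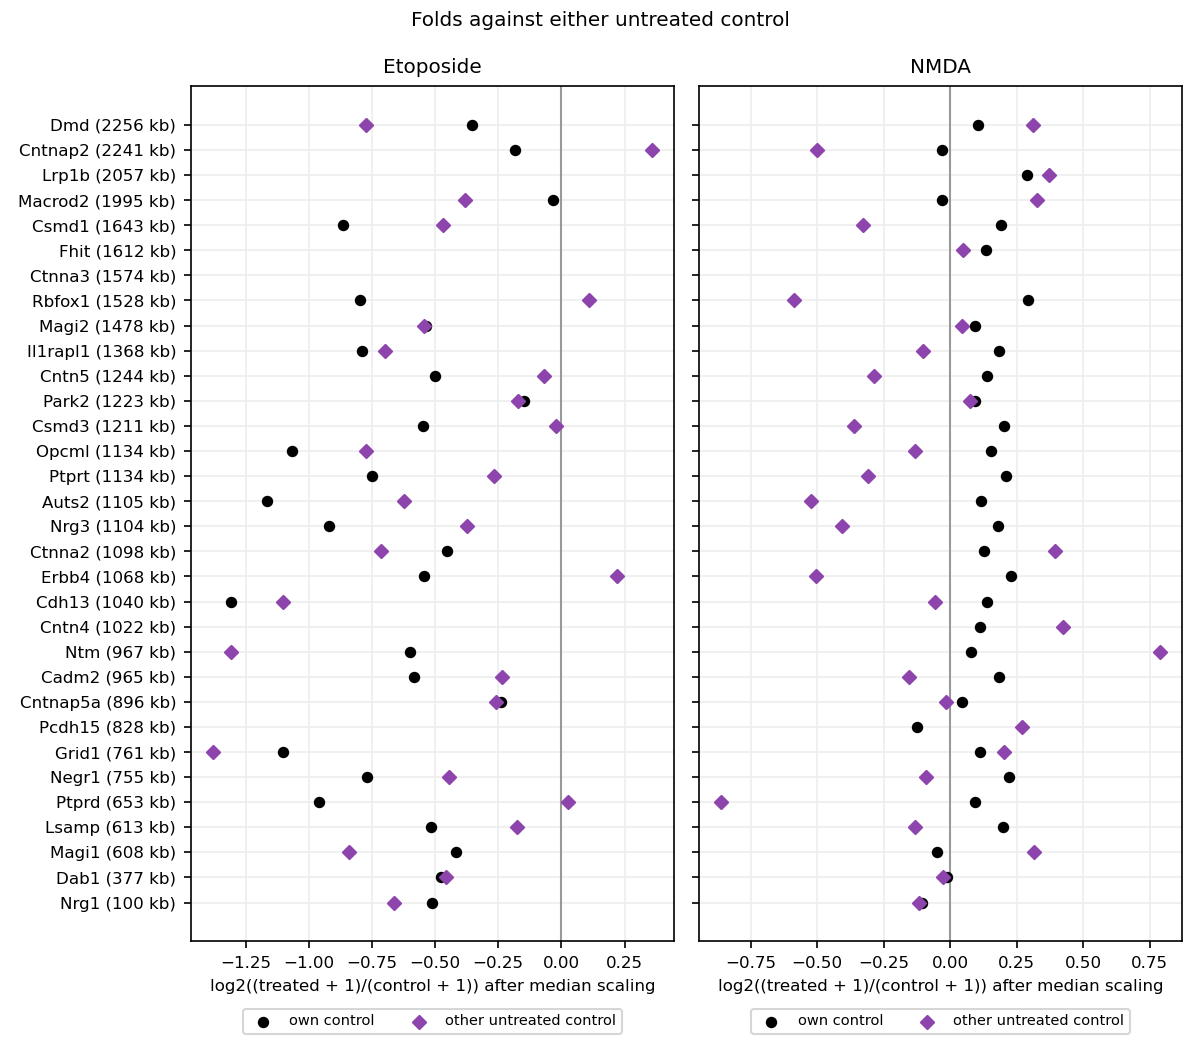
Log2((treated + 1)/(control + 1)) of each gene after scaling FPKM by the median ratio of genes at FPKM of at least 1 in both libraries, against the treatment's own control (circles) and against the other untreated library (diamonds), with etoposide on the left and NMDA on the right. Genes run from the longest deposited locus at the top to the shortest. Those below 1 FPKM in both libraries of a treatment's own pair have no point. With etoposide most symbols of both kinds lie left of 0, whereas with NMDA the circles cluster just right of 0 and the diamonds spread to both sides.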

How the data were processed

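RNA was analysed in 4 of the 16 samples, 1 library per group, and the 12 chromatin samples were not analysed here. Per the labels' protocols, libraries came from a total RNA kit, with reads from both fragment ends. Cufflinks 2.0.0 and Cuffdiff, with TopHat and Bowtie, and the build mm9 are named in the submitters' processing notes, which also list BWA, Picard and HOMER and assign no steps. Values are FPKM as the authors deposited them, for 22440 genes. The authors also deposited 2 comparison tables (692 and 63 genes) whose FPKM equal those of the library tables within a relative tolerance of 0.0001, and each treated library was paired with the control found there. Of all genes, 3584 share a deposited locus with another gene, and they were left out of the span bands and of rho over all genes, except that members were all kept in the bands.

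Ratios and log2((treated + 1)/(control + 1)) were computed with a pseudocount of 1 FPKM for genes at FPKM of at least 1 in either library. The pseudocount understates differences of low genes. The size rule was 2-fold. Depth came from single-exon genes of low FPKM, where 1 fragment per kb was worth 0.0418 to 0.0637 FPKM. Between 50% and 64.5% of those values were whole numbers of fragments within a tolerance of 0.1, so fragment numbers and the exact 95% counting intervals made from them are approximate. The recovery of fragment worth and of folds was tested on simulated data, and the intervals were not. Transcript lengths and exons came from GENCODE vM1, matched for 21342 genes, and 1 was added to deposited starts, which count from 0.

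The members and the lists were chosen with earlier results of these data known. All members with a row are named, with up to 4 genes of each other list by size of the etoposide fold. Some paralogs, but not all, are named beside their family member, and Cbln2 is named beside Cbln4. The nested genes were chosen after their values were seen. A gene that these rules take is not reported here, though it stays in the counts. Alternatives were a pseudocount of 0.1, no level filter, FPKM of at least 5, median scaling, the other control with and without scaling, a 1.5-fold rule, members with exon overlap left out and, added after seeing the data, members sharing a locus left out, GENCODE spans and plain ratios. Python 3.11.15, pandas 2.3.3, scipy 1.17.1 and matplotlib 3.10.9 were used.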

Additional observations from a re-analysis of the deposited data

How the results depend on the processing

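No paired analysis was possible because each group has 1 library. With etoposide, the count of members at least 2-fold lower (10 of 27, 7.36% of all genes) was 17 with a pseudocount of 0.1 (14.5% of all genes), 22 by a 1.5-fold rule (27.5%) 4 after median scaling (2.26%) and 6 of 19 over members with a locus of their own. Against the other untreated library it was 30 of 31 (84.5%), and 3 with median scaling added (12.5%). The median log2 fold of -0.86 was -0.55 after median scaling, -1.96 against the other untreated library and -0.45 there after scaling. Relative to all genes, -0.54 became -0.29 and -0.35 against that library without and with scaling. The count of members above the median gene, 0 in the report, was 2 with no level filter (Fhit and Lrp1b), 1 at FPKM of at least 5, and 8 and 7 against the other untreated library without and with scaling. The rank correlation of fold with span, 0.18, was 0.063 with a pseudocount of 0.1, 0.0537 with the plain ratio, 0.0158 over the 19 members with a locus of their own, and 0.35 and 0.29 against the other library. Ptprd (0.0268), Rbfox1 (0.11), Erbb4 (0.22) and Cntnap2 (0.36) turned positive against the other untreated library with median scaling.

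With NMDA, the median log2 fold of 0.15 was 1.29 against the other untreated library and turned to -0.0912 there after scaling. Relative to all genes, 0.13 turned to -0.0668 and -0.15, and the count above the median gene went from 25 to 14 and 10. The rank correlation with span, 0.25, was 0.0035 at FPKM of at least 5, 0.35 with the plain ratio, -0.12 with GENCODE spans, 0.43 over the 22 members with a locus of their own, and -0.16 and -0.048 against the other library without and with scaling. The cause of these shifts was not tested. Depth limits Park2, Nrg1, Fhit, Pcdh15, Cntn4 and Ctnna3 in the etoposide pair, where each had few fragments.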
